A study of Mus musculus with 11 samples.

Results

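Laminins are the cross-shaped glycoproteins on which basement membranes are built. Each molecule is a trimer of 1 alpha, 1 beta and 1 gamma chain that is joined inside the cell before secretion, and the alpha chain carries the sites that bind integrins and dystroglycan on the cell surface. In the healthy liver, laminin is found around bile ducts, portal vessels and nerves, the sinusoids lack a continuous basement membrane, and laminin is deposited along them in fibrosis. The 9 laminin genes described here were taken by symbol from a table of 46603 genes: Lama2, Lama3, Lama4 and Lama5 for alpha chains, Lamb1, Lamb2 and Lamb3 for beta chains, and Lamc1 and Lamc3 for gamma chains. All 9 passed the filter on low counts that left 13880 genes for testing. A further alpha chain, Lama1, is given beside the partners of the basement membrane.

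Whole-liver mRNA was sequenced from male B6.V-Lep ob/JRj (ob/ob) mice, which carry a mutation that removes functional leptin. They were 5 to 6 weeks old when they were put on the AMLN diet, which is rich in fat, fructose and cholesterol and leads to steatohepatitis with fibrosis (MASH), and all of them stayed on it for 15 weeks before treatment and throughout treatment. The Vehicle group (n = 7) was gavaged once daily for 8 weeks with 0.5% carboxymethyl cellulose, and the INT-767 group (n = 4) received 10 mg/kg INT-767, a semi-synthetic agonist of the bile acid receptors FXR and TGR5, on the same schedule. No group without the diet or without the leptin mutation was analysed here, and each sample is labelled as a liver of its own.

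Total counts ranged from 7966963 to 15295230 with Vehicle and from 7381211 to 16022459 with INT-767. Levels below are CPM, the count of a gene relative to all counts of its library, scaled by TMM factors. These factors differed by group, between 0.972 and 1.136 with Vehicle and between 0.843 and 0.984 with INT-767. The hepatocyte product Alb was at 43057 ± 4297 CPM with Vehicle (SD, n = 7) and 63913 ± 19494 CPM with INT-767 (SD, n = 4), the level of a transcript that marks liver. Nr0b2 (SHP), a direct target of FXR, was between 9.74 and 26.0 CPM in the Vehicle mice and between 41.1 and 63.0 CPM in the INT-767 mice, so that no library went against its group label. INT-767 mouse 4 stood apart from the rest, with a median rank correlation of 0.911 with the other libraries where those of the other 10 mice were between 0.946 and 0.975. INT-767 mouse 2 had the lowest level of all 11 mice for 8 of the 9 chains. Both mice also had the highest shares of counts on mitochondrial genes, 6.87% in mouse 2 and 6.63% in mouse 4, beside 5.59% and 4.43% in INT-767 mice 1 and 3 and 3.35% to 5.74% with Vehicle, and mouse 2 had the fewest genes with a count (18084). The part of these differences between libraries in the levels of the chains was not tested. The calls of the chains are given with and without these libraries.

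Lama5 and Lamb1 are the chains on which the comparison turned, and their promoters are shown here with that of Lamb2, the other widespread beta chain. The RefSeq table of promoters (GRCm38.p6, 250 bases before and 50 bases after each start) matched 5 of the chains, Lama2, Lama5, Lamb1, Lamb2 and Lamb3; Lama3 was not looked up. Capitals mark GGGCGG, the core of the GC box bound by SP1-type factors, or CCGCCC, the same letters on the other strand. Each sequence is written from 5′ to 3′ on the strand of the gene, at chr2:180225810-180226109 (minus strand) for Lama5, chr12:31265043-31265342 (plus strand) for Lamb1 and chr9:108479612-108479911 (plus strand) for Lamb2.
Lama5: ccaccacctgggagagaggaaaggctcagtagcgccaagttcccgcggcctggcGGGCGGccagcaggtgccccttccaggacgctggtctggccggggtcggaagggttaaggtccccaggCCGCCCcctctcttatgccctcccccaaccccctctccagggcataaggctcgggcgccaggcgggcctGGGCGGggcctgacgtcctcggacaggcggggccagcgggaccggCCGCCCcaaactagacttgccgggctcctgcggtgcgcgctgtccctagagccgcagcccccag
Lamb1: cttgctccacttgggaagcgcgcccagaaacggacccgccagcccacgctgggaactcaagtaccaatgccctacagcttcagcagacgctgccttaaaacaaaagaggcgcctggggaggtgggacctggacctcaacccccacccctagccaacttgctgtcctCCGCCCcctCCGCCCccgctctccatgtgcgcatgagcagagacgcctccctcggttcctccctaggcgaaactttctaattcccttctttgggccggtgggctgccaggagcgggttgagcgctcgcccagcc
Lamb2: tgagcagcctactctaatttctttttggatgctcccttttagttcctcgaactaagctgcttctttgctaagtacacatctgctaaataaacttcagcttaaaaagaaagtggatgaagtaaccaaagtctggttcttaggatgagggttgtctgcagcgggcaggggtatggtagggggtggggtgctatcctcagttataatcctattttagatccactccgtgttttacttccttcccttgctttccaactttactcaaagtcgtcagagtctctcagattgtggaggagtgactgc
The Lama5 window held 4 GC boxes, the Lamb1 window 2 and the Lamb2 window 0, and 35.7% of the 32851 promoters in the table held at least 1. Lama2 had 1 and Lamb3 had 0. The GC content of the window was 72.7% for Lama5, 63.7% for Lamb1 and 44.0% for Lamb2, beside a median of 52.7% over all promoters. CCAAT was found once, in Lamb1, and in 37.4% of all promoters. TATAAA (13.6% of all promoters), the AP-1 motif TGANTCA (7.81%) and the nuclear receptor core site AGGTCA (16.3%) were in none of the 5 genes' windows on either strand, and neither was the inverted repeat of AGGTCA spaced by 1 base, the form that FXR binds, which 3 of the 32851 promoters held. The core site is contained in that repeat. Lama5 and Lamb1 were printed because of their calls, and whether these motifs bear on the fold changes was not tested. The windows follow RefSeq starts. Those of Lama2 and Lamb3 lie wholly inside the genes as placed by GENCODE below, and the RefSeq starts of Lamb1 and Lamb2 also lie inside theirs.

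To learn whether INT-767 changed the chains of laminin, the 4 INT-767 livers were compared with the 7 Vehicle livers by edgeR's quasi-likelihood test, with Benjamini-Hochberg adjustment over all 13880 tested genes. Lama5 and Lamb1 fell with INT-767. The other 7 chains had lower mean levels too, but none of them passed the adjusted threshold of 0.05. Thus 2 of 9 chains were called lower, beside 4.68% of all tested genes, and 0 of 9 were called higher, beside 5.04%. DESeq2 called 7 chains lower and 0 higher, where it called 9.86% of all tested genes lower. These 7 were Lama3, Lama5, Lamb1, Lamb2, Lamb3, Lamc1 and Lamc3. At an unadjusted p under 0.05 in edgeR, all 9 chains were lower, as were 15.6% of all tested genes. Lama3, with at most 10 counts in an INT-767 mouse, passed the filter only through the Vehicle mice. The 7 chains called by DESeq2 include it, and DESeq2 was not run with a stricter filter. With at least 10 counts required in every mouse, Lama3 was not tested, and all 8 remaining chains were lower at that unadjusted threshold. The log2 fold change was below 0 for all 9 chains and for 50.6% of all genes, with a median of -1.04 over the chains and of -0.01 over all genes. With the filter that left out Lama3, it was below 0 for all 8 chains tested, with a median of -1.02 over them and of -0.02 over all genes. In a bulk sample of liver, fewer cells of a type that makes laminin and less laminin RNA in each of them cannot be told apart.

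**Figure D1:**
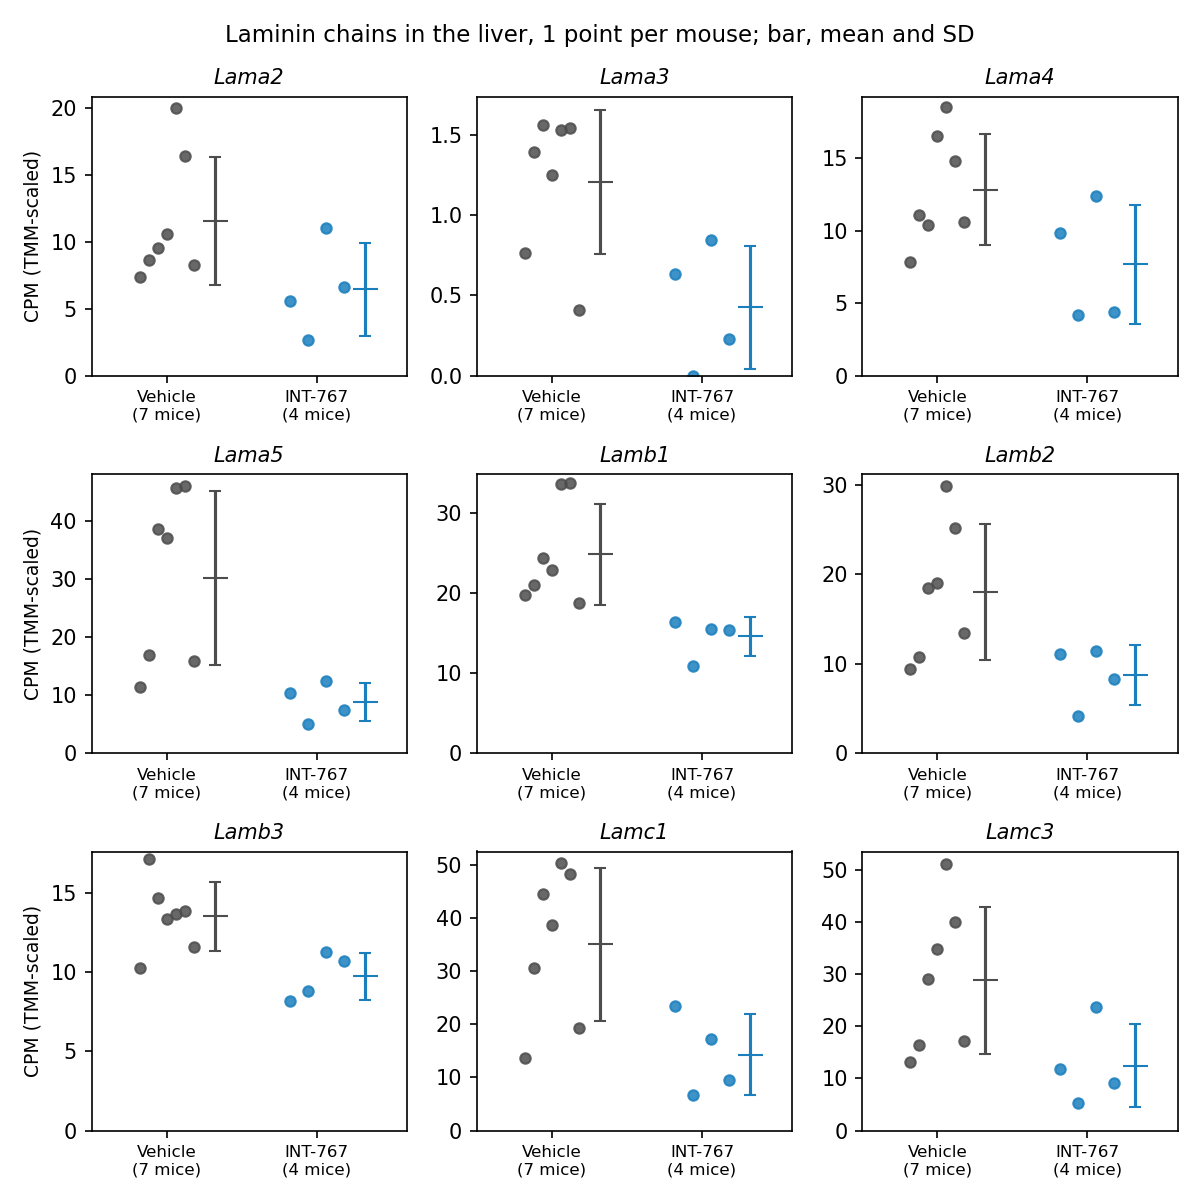
Level of each laminin chain in CPM (vertical axes, each starting at 0) in every mouse of the Vehicle group (grey, 7 mice) and the INT-767 group (blue, 4 mice), with the mean and SD as a bar at the right of each group. The groups are apart only for Lamb1, where the INT-767 mice end at 16.4 CPM and the Vehicle mice begin at 18.7 CPM, and the Vehicle mice are widely spread for Lama5, Lamb2, Lamc1 and Lamc3.

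Lama5 encodes the most widespread alpha chain of adult epithelial and endothelial basement membranes, and by edgeR it had the largest fold change among the 9 chains. Lama3 exceeded it by limma-voom (-1.70 beside -1.65 on the log2 scale) and with a block for the mouse's number, without the offset on GC content and length described below (-1.63 beside -1.48) and with it (-1.24 beside -0.96). Lama3 passed the filter only through the Vehicle mice, so that its rank beside Lama5 carries no weight. Lama5 lies on chromosome 2 from 180176373 to 180225859 (GRCm38), with 79 exons in its longest transcript. Its level in the Vehicle mice ranged from 11.4 to 46.1 CPM with a median of 37.1 CPM, and in the 4 INT-767 mice it was 10.4, 4.97, 12.4 and 7.49 CPM. Every INT-767 mouse was below the Vehicle median, and 3 of 4 were below the lowest Vehicle mouse. The Vehicle mice themselves fell into a low set, mice 1, 2 and 7 between 11.4 and 17.0 CPM, and a high set, mice 3 to 6 between 37.1 and 46.1 CPM. The mitochondrial share of counts was 5.74%, 4.33% and 4.71% in mice 1, 2 and 7 and 4.14%, 3.56%, 3.35% and 4.06% in mice 3 to 6, so that it was higher in every mouse of the low set, and its part in the split was not tested. The mean was 30.2 ± 15 CPM with Vehicle (SD, n = 7) and 8.80 ± 3.25 CPM with INT-767 (SD, n = 4). The log2 fold change was -1.78 (SE 0.43, edgeR adjusted p = 0.0261), a level 3.43-fold lower, and the exact Mann-Whitney test gave p = 0.0121 (two-sided), or 0.106 after adjustment over all tested genes.

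The remaining alpha chains did not pass edgeR's test. DESeq2 called Lama3 lower (adjusted p = 0.0463), but Lama3 passed the filter only through the Vehicle mice, so that this call is no support. Lama4, the alpha chain of vascular endothelium (chromosome 10, 38965515 to 39110188, 38 exons), was between 7.86 and 18.5 CPM in the Vehicle mice (median 11.1 CPM) and at 9.85, 4.15, 12.4 and 4.35 CPM in the INT-767 mice. INT-767 mice 2 and 4 lay below all Vehicle mice, and mice 1 and 3 lay inside their range. The log2 fold change was -0.74 (SE 0.33, edgeR adjusted p = 0.143). Lama2, the alpha chain of muscle and peripheral nerve that binds dystroglycan (chromosome 10, 26980036 to 27619758, 65 exons), was between 7.35 and 20.0 CPM with Vehicle (median 9.57 CPM) and at 5.59, 2.63, 11 and 6.59 CPM with INT-767. INT-767 mouse 3 was above the Vehicle median and the other three were below every Vehicle mouse, with a log2 fold change of -0.85 (SE 0.37, edgeR adjusted p = 0.135).

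Lama3, the alpha chain of the laminin that anchors epithelia, was near the limit of detection. It had 97 counts in the 7 Vehicle mice together and 19 in the 4 INT-767 mice. Vehicle mice ranged from 0.409 to 1.56 CPM with a median of 1.39 CPM, and the INT-767 mice were at 0.635, 0, 0.845 and 0.225 CPM. The 0 of INT-767 mouse 2 allows a level of up to 0.415 CPM (3 counts, counting error only). The groups overlapped, and the log2 fold change of -1.46 had the largest error of the 9 chains (SE 0.58, edgeR adjusted p = 0.107). Of the exon bases of Lama3, Lama2 and Lamc3, 1.83%, 3.86% and 6.27% lie under exons of a gene on the opposite strand, and whether the counting used strand is not given in the sources used here.

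Among the beta chains, Lamb1 was the only member whose groups did not overlap, in that every INT-767 mouse was below every Vehicle mouse. This held for 1 of 9 chains and for 3.65% of all tested genes, while for 3.87% every INT-767 mouse was above, so that groups were apart in either direction for 7.51% of them. Lamb1 encodes the usual beta partner of Lamc1 (chromosome 12, 31265234 to 31329644, 33 exons). The 7 Vehicle mice ranged from 18.7 to 33.7 CPM with a median of 22.8 CPM, and the INT-767 mice were at 16.4, 10.9, 15.5 and 15.4 CPM. The mean was 24.8 ± 6.30 CPM with Vehicle (SD, n = 7) and 14.5 ± 2.46 CPM with INT-767 (SD, n = 4), a level 1.70-fold lower (log2 fold change -0.77, SE 0.21, edgeR adjusted p = 0.0376). The exact Mann-Whitney p was 0.00606, the smallest that 4 against 7 mice can give, and 0.0807 after adjustment over all tested genes.

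Lamb2, the beta chain of vessel walls, kidney glomeruli and neuromuscular junctions (chromosome 9, 108479736 to 108490530, 33 exons), had a larger fold change than Lamb1 but was more widely spread. Vehicle mice were between 9.38 and 29.9 CPM (median 18.5 CPM) and INT-767 mice at 11.1, 4.15, 11.4 and 8.24 CPM. Vehicle mice 1 and 2, at 9.38 and 10.7 CPM, lay within the INT-767 range. The log2 fold change was -1.04 (SE 0.36, edgeR adjusted p = 0.0770). Lamb3, the beta chain that pairs with Lama3 in epithelia (chromosome 1, 193207699 to 193343878, 27 exons), was the most even of the chains. It was between 10.3 and 17.2 CPM with Vehicle (median 13.7 CPM) and at 8.20, 8.84, 11.3 and 10.7 CPM with INT-767. Every INT-767 mouse was below the Vehicle median, but 2 of 4 lay inside the Vehicle range, and the log2 fold change was -0.47 (SE 0.17, edgeR adjusted p = 0.0844).

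Both gamma chains missed the threshold by edgeR, while DESeq2 called both lower (adjusted p = 0.0136 for Lamc1 and 0.0339 for Lamc3). Lamc1, the gamma chain of most laminin trimers (chromosome 1, 153218922 to 153332786, 28 exons), was between 13.6 and 50.3 CPM with Vehicle (median 38.7 CPM) and at 23.5, 6.63, 17.2 and 9.59 CPM with INT-767. All 4 INT-767 mice were below the Vehicle median, and Vehicle mice 1 and 7, at 13.6 and 19.3 CPM, lay among them. The log2 fold change was -1.29 (SE 0.41, edgeR adjusted p = 0.0645). Lamc3, a less widely used gamma chain known from vessels and nerves (chromosome 2, 31887291 to 31946539, 28 exons), was between 13.1 and 51.3 CPM with Vehicle (median 29.2 CPM) and at 11.8, 5.25, 23.7 and 9.14 CPM with INT-767. INT-767 mouse 3 overlapped the Vehicle mice, the other three were below all of them, and the log2 fold change was -1.22 (SE 0.45, edgeR adjusted p = 0.0915).

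The calls of Lama5 and Lamb1 were lost when single mice were left out, while the fold changes stayed near those of all mice. Without INT-767 mouse 2 the log2 fold change was -1.60 for Lama5 (edgeR adjusted p = 0.107) and -0.67 for Lamb1 (adjusted p = 0.144), and 0 chains were called, as was also so without INT-767 mouse 4, Vehicle mouse 5 or Vehicle mouse 6 (with 5, 5, 7 and 7 chains lower at an unadjusted p under 0.05). In these fits 0.767%, 3.17%, 2.11% and 1.96% of all tested genes were called lower, beside 4.68% with all mice. Without Vehicle mouse 3 or 4 only Lama5 was called (beside 2.76% and 2.84% of all tested genes lower), without INT-767 mouse 3 Lama5 and Lamc3 (4.32%), without INT-767 mouse 1 Lamc1 in addition to Lama5 and Lamb1 (5.23%), and without Vehicle mouse 1, 6 chains, where 9.86% of all tested genes were called lower. Across the 13835 genes with both properties, the log2 fold change had a rank correlation of -0.296 with GC content and of -0.244 with transcript length, and the 3255 tested genes at least as long as the shortest chain, Lamb3, had a median of -0.24 with 5.96% called lower. With an offset per library that takes out trends on GC content and on length, the median over the chains was -0.61, Lama5 was called at -1.10 (adjusted p = 0.00875), Lamc1 was called at -0.83 (adjusted p = 0.0322), and Lamb1 was no longer called at -0.36 (adjusted p = 0.119), where 5.97% of all tested genes were called lower.

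**Figure D2:**
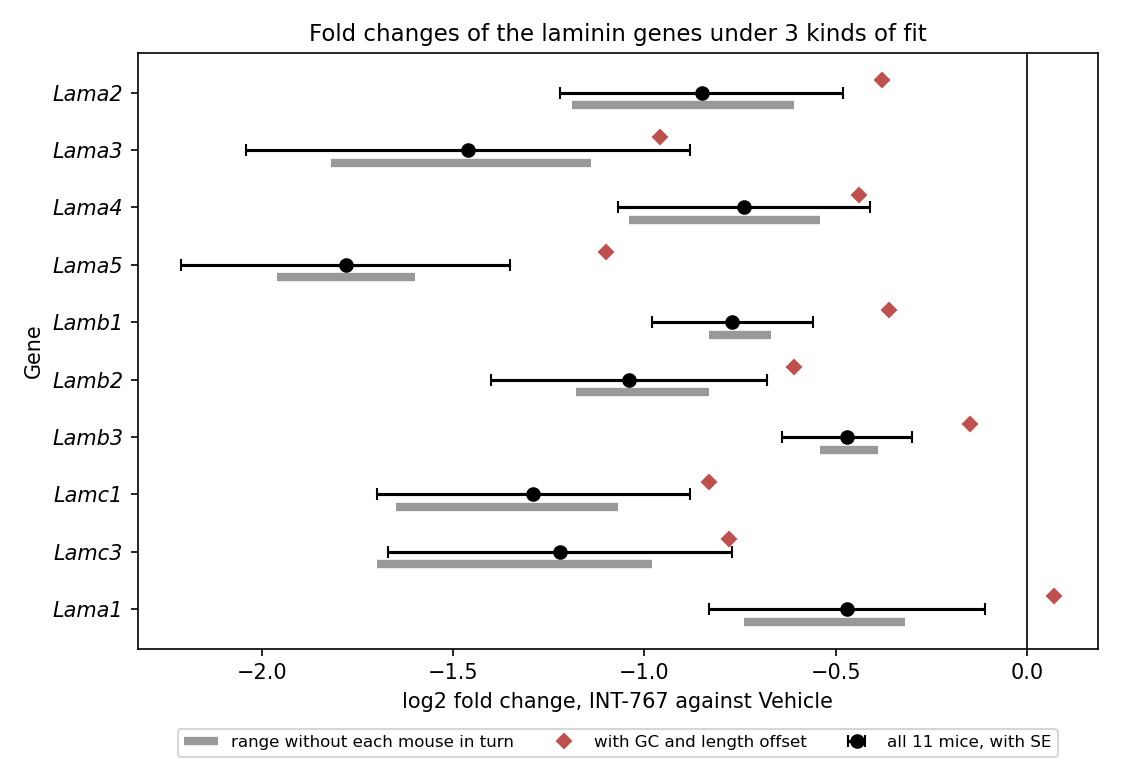
Log2 fold change of INT-767 against Vehicle (horizontal axis) for the 9 chains and for Lama1, with all 11 mice (black, with SE), as the range over fits that leave out each mouse in turn (grey) and with the offset on GC content and length (red). Lama5 lies farthest from 0 at -1.78, Lama1 crosses to 0.07 with the offset, and every other point is below 0.

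Levels of different chains can be compared only per length. Per kilobase of annotated exon (RPKM, TMM-scaled), the Vehicle means were in the order Lamc3 at 4.74 ± 2.32, Lamc1 at 4.23 ± 1.74, Lamb2 at 2.96 ± 1.24, Lama5 at 2.65 ± 1.32, Lamb1 at 2.5 ± 0.636, Lamb3 at 2.04 ± 0.333, Lama4 at 1.06 ± 0.318, Lama2 at 0.707 ± 0.292 and Lama3 at 0.112 ± 0.0418 (SD, n = 7). Among neighbours in this order, the ranges of the Vehicle mice were separate only between Lamb3 and Lama4 and between Lama2 and Lama3. With the longest transcript as the length, Lamb1 moved to the third place at 4.29 RPKM and Lama5 to the sixth place, and only Lama2 and Lama3 were separate. Summed by class, the alpha chains with Lama1 were at 5.06 ± 2.06 RPKM with Vehicle and 2.22 ± 0.946 with INT-767, the beta chains at 7.51 ± 1.94 and 4.38 ± 0.876, and Lamc1 with Lamc3 at 8.98 ± 3.95 and 3.77 ± 1.96.

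**Figure D3:**
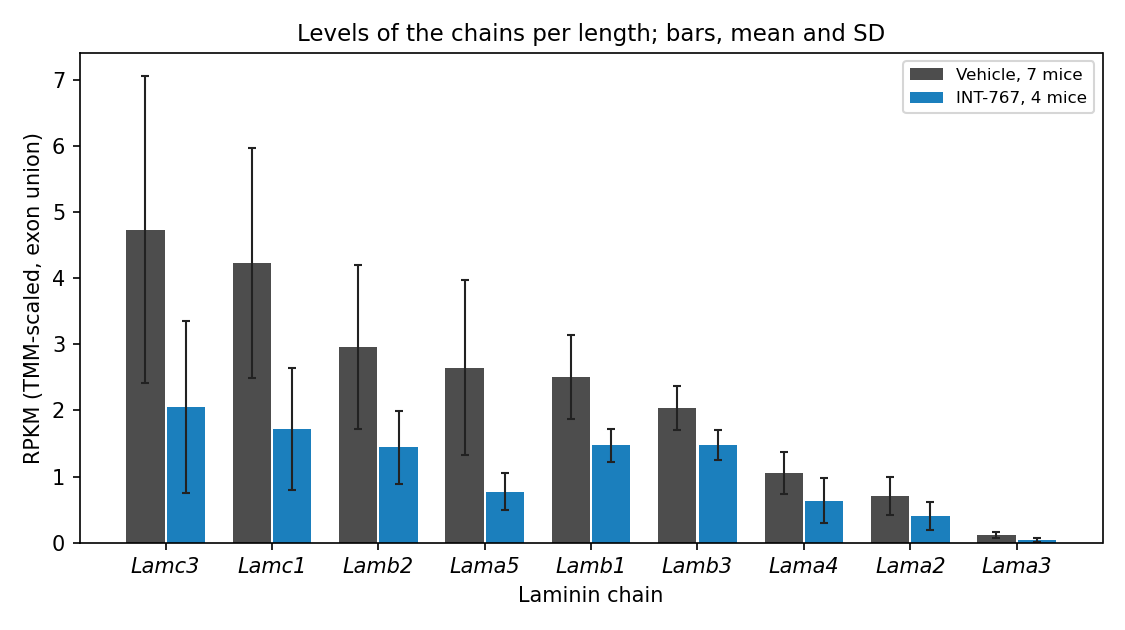
Mean level of each chain per kilobase of exon (RPKM, vertical axis from 0; error bars, SD) in the Vehicle (grey, n = 7) and INT-767 (blue, n = 4) mice, ordered by the Vehicle mean. Lamc3 and Lamc1 lead with Vehicle at 4.74 and 4.23 RPKM. By this length Lama5 drops from the fourth place with Vehicle, at 2.65 RPKM, to below the 3 beta chains with INT-767, at 0.773 RPKM. By the longest transcript its Vehicle mean of 2.65 RPKM is already below Lamb1 (4.29), Lamb2 (3.20) and Lamb3 (2.78).

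Within the alpha class, the share held by Lama5 was lower with INT-767. It was 50.4% ± 7.72 of the summed RPKM of the alpha chains with Vehicle (SD, n = 7, range 41.1% to 60.2%) and 35.6% ± 2.4 with INT-767 (SD, n = 4, range 33.1% to 37.9%), so that the groups did not overlap. They did not overlap with the longest transcript as the length either, where the ranges were 29.4% to 49.1% and 22.7% to 27.6%. The shares of Lama4 were 22.4% ± 5.08 and 28.0% ± 4.87, or 33.5% ± 6.11 and 39.7% ± 6.36 with the longest transcript. By that length Lama4 held 30.2% to 43.5% in the INT-767 mice, above Lama5, where by exon length it was below Lama5 in the mean. The shares of Lama1 were 10.5% ± 2.21 and 17.5% ± 3.45. Among the beta chains, Lamb1 held 33.5% ± 2.75 with Vehicle and 33.7% ± 2.28 with INT-767. Lamb2 held 38.2% ± 7.12 and 31.8% ± 7.58, and Lamb3 28.3% ± 6.58 and 34.5% ± 6.87, with ranges that overlapped for all 3 beta chains. These shares were not tested, since they were looked at after the fold changes were known. The share of Lama5 is built from the values that gave its fold change. How often shares of other genes keep the groups apart was not examined.

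To relate chains that enter one trimer, or compete for one place in it, 7 ratios of counts within a mouse were compared, which do not depend on how libraries are scaled. Like the shares above, they were taken without the offset on GC content and length. With that offset the log2 fold changes were -1.10 for Lama5, -0.44 for Lama4 and -0.83 for Lamc1, beside -1.78, -0.74 and -1.29 without it. The log2 ratio of Lama5 to Lama4 was between 0.53 and 1.89 in the Vehicle mice (median 1.17) and 0.07, 0.26, 0.00 and 0.78 in the INT-767 mice. Only INT-767 mouse 4 reached into the Vehicle range. The mean difference was -0.82, with an exact two-sided Mann-Whitney p = 0.0424, which was 0.148 after Benjamini-Hochberg adjustment over the 7 ratios. Without INT-767 mouse 2 the difference was -0.82 (exact p = 0.117), and without INT-767 mouse 4 it was -0.99 (exact p = 0.0167, the smallest that 3 against 7 mice can give). Lama5 against Lamc1 was between -0.85 and -0.06 with Vehicle (median -0.20) and -1.18, -0.41, -0.47 and -0.35 with INT-767, with a difference of -0.34, an exact p of 0.0424 and an adjusted p of 0.148. All 4 INT-767 mice were below the Vehicle median, and without INT-767 mouse 1 the difference was -0.15 (exact p = 0.117).

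The 5 ratios without Lama5 had mean differences above 0, none of which passed the test. Lamb1 against Lamc1, the beta and gamma pair of most trimers, was between -0.86 and 0.53 with Vehicle (median -0.55) and between -0.52 and 0.71 with INT-767, a difference of 0.58 (exact p = 0.109, adjusted p = 0.191). Lama4 against Lamc1 differed by 0.48 (exact p = 0.109, adjusted p = 0.191) and Lama2 against Lamc1 by 0.41 (exact p = 0.315, adjusted p = 0.368). Lamb2 against Lamc1 differed by 0.29 (exact p = 0.412, adjusted p = 0.412), and Lamb1 against Lamb2, which compete for the beta place, by 0.28 (exact p = 0.230, adjusted p = 0.322). In each of them the groups overlapped. None of the 7 ratios passed 0.05 after adjustment.

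**Figure D4:**
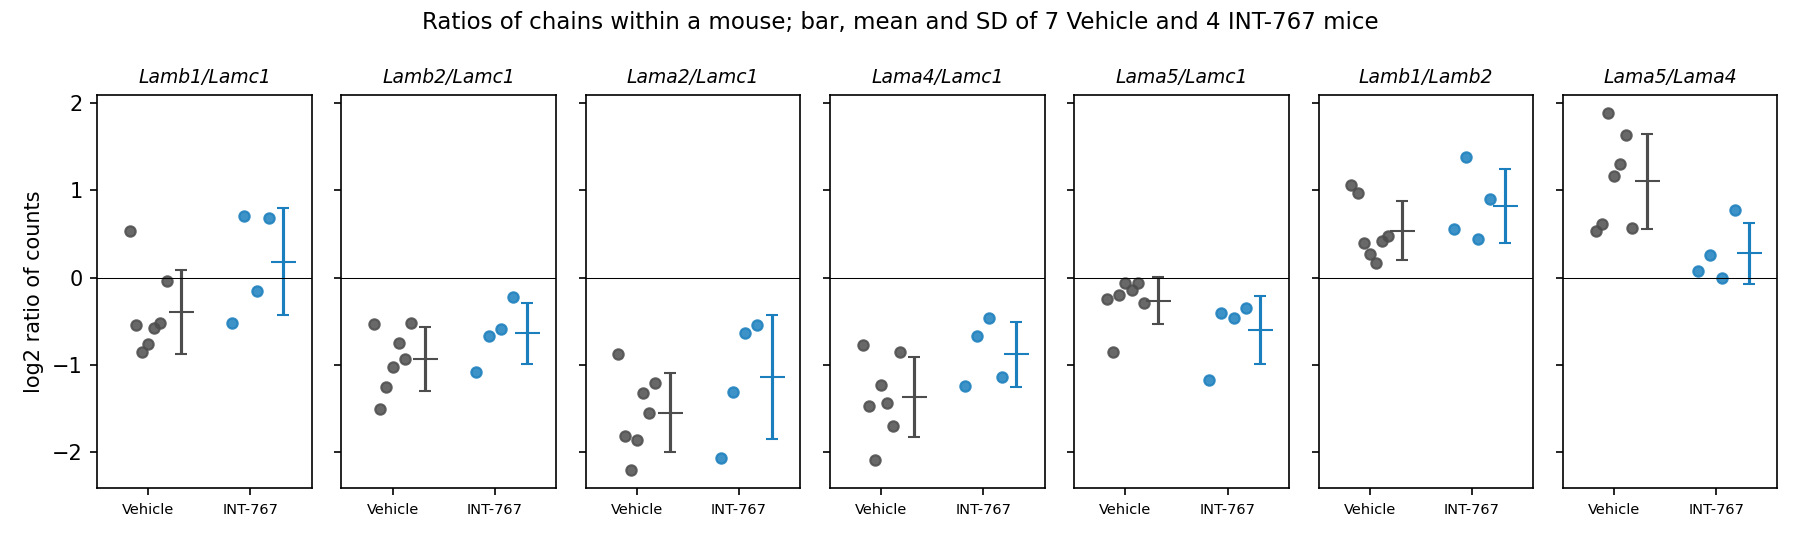
Log2 ratio of the counts of 2 chains within a mouse (vertical axis, shared) for the 7 pairs named above each panel, with 1 point per mouse for Vehicle (grey, 7 mice) and INT-767 (blue, 4 mice) and the mean and SD as bars. The INT-767 points sit lower for Lama5 against Lamc1 and Lama5 against Lama4, with means of -0.60 and 0.28 beside -0.26 and 1.10, and higher or within the spread in the other 5 panels.

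The Vehicle mice differed among themselves in the same direction for most chains. Mice 1, 2 and 7 had the 3 lowest Vehicle levels for 6 of the 9 chains, Lama2, Lama5, Lamb1, Lamb2, Lamc1 and Lamc3. For Lama5 these mice ended at 17.0 CPM and the other 4 began at 37.1 CPM. Lamc3, where they ended at 17.3 CPM and the others began at 29.2 CPM, and Lamb2, at 13.4 and 18.5 CPM, had the same split. Lama3 and Lamb3 were lowest in mice 1, 4 and 7, and Lama4 in mice 1, 3 and 7. Because the mice fell into separate sets, correlations of chains across them are not given.

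By deviation from the group means over all 11 mice, the genes outside the family most like Lamb1 were Plcb2, a phospholipase C, Ntn4, the basement membrane protein netrin-4, and Shroom4, each with r = 0.96. Those most like Lamb2 were Myof (myoferlin) and Cerk (ceramide kinase) with r = 0.99 and Sorl1, a sorting receptor, with r = 0.98. Zfp628, Ttc28 and the DNA methyltransferase gene Dnmt3a were most like Lamc1, each with r = 0.99. Of these 9 genes, Myof (log2 fold change -1.33, edgeR adjusted p = 0.0359), Cerk (-1.03, adjusted p = 0.0418) and Dnmt3a (-1.13, adjusted p = 0.0454) were called lower. When INT-767 mouse 2 was left out their adjusted p was 0.127, 0.152 and 0.165, and when INT-767 mouse 4 was left out it was 0.0857, 0.0981 and 0.112, so that all 3 calls were lost. High r was common, with 3.11%, 5.74% and 16.4% of the other tested genes at 0.8 or more with Lamb1, Lamb2 and Lamc1. These r are descriptions, since the values of a mouse share its library and scaling and the split of the Vehicle mice enters them.

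**Figure D5:**
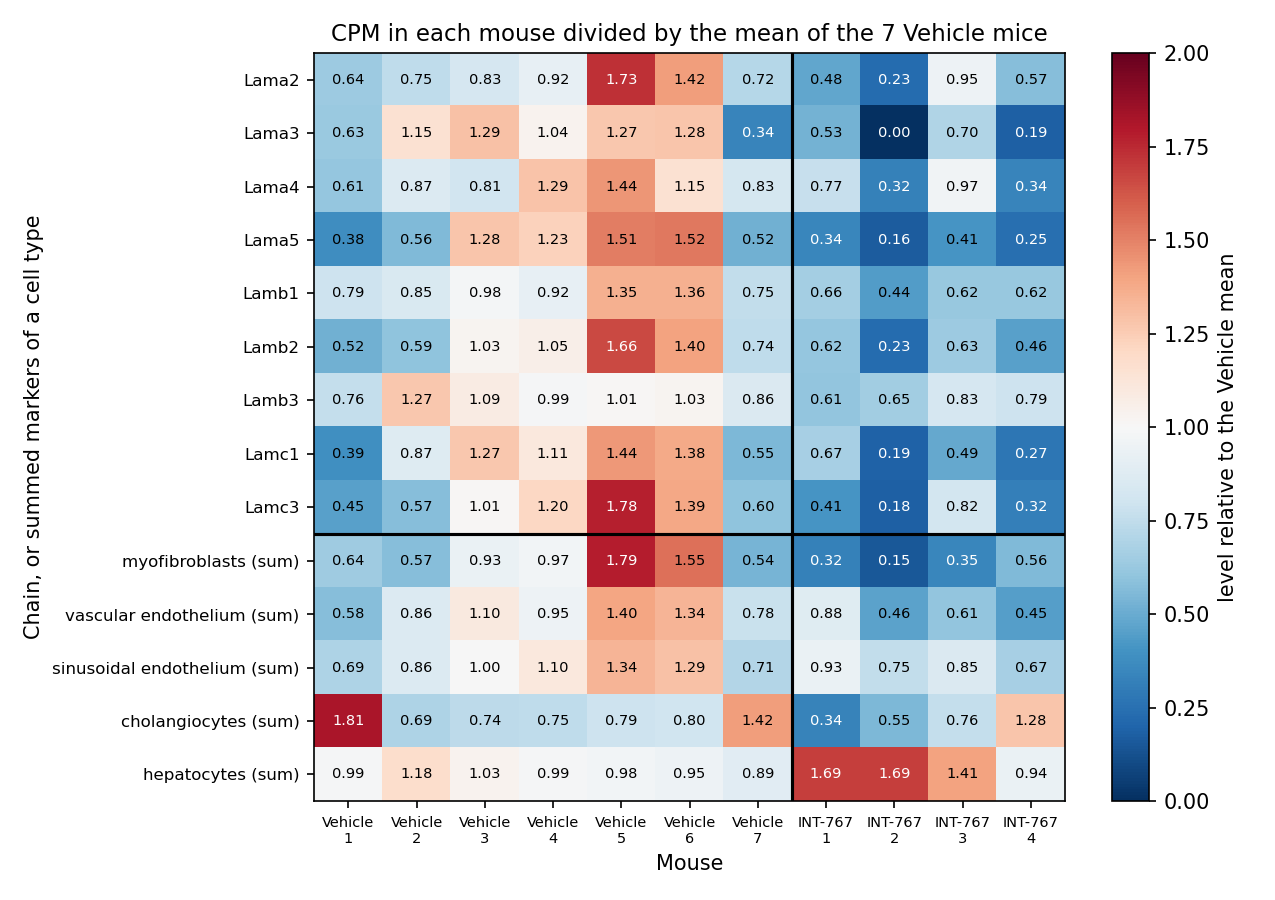
Level of each chain (upper rows) and summed CPM of the markers of 5 cell types (lower rows) in each mouse (columns), divided by the mean of the 7 Vehicle mice; red is above and blue below that mean. Vehicle mice 5 and 6 are above 1 in all rows but those of cholangiocytes and hepatocytes, and INT-767 mouse 2 is the lowest for 8 of the 9 chains, from 0.00 for Lama3 to 0.44 for Lamb1.

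The same mice stood high or low in several chains. Vehicle mouse 5 had the highest level of all mice for 5 of the 9 chains and Vehicle mouse 6 for 2, while Vehicle mouse 1 had the lowest Vehicle level for 7. Markers of cells that can make laminin were read beside the chains. The 8 myofibroblast markers, led by Col3a1, summed to 293 to 973 CPM in the Vehicle mice (median 508 CPM), and mice 5 and 6 were the highest at 973 and 846 CPM. In the INT-767 mice their sum was 175, 81.1, 189 and 304 CPM, with mouse 2 the lowest. Of the 8, Col1a1, a fibrillar collagen chain (log2 fold change -2.96, SE 0.74, adjusted p = 0.0297), and Pdgfrb, a receptor of mesenchymal cells (-1.31, SE 0.33, adjusted p = 0.0302), were called lower by edgeR and 0 higher. Over all tested genes, edgeR called 4.68% lower and 5.04% higher. DESeq2 called 3 of 8 lower, with Col3a1 in addition, beside 9.86% of all tested genes. Acta2, the contractile marker of the same list, was at 5.40 ± 2.14 CPM with Vehicle and 3.46 ± 1.12 CPM with INT-767 (adjusted p = 0.173).

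Vascular endothelial markers, led by Plvap, summed to 65.4 to 158 CPM with Vehicle (median 107 CPM) and to 99.7, 52.2, 68.7 and 50.4 CPM with INT-767. Of these 5, edgeR called 1 lower, the von Willebrand factor gene Vwf (-1.31, SE 0.35, adjusted p = 0.0360), beside 4.68% of all tested genes. DESeq2 called 2 lower, beside 9.86%, and 3 were lower at an unadjusted p under 0.05, beside 15.6%. Sinusoidal endothelial markers, led by Stab2, summed to 126 to 246 CPM and to 171, 138, 156 and 122 CPM. Of these 6, 0 were called by edgeR or DESeq2 and 1 was lower at an unadjusted p under 0.05, beside 15.6% of all tested genes. Macrophage markers, led by Gpnmb, summed to 213 to 357 CPM and to 170, 155, 112 and 257 CPM. Of these 6, edgeR called Cd68 (-1.16, SE 0.22, adjusted p = 0.00943) and Itgam (-1.73, SE 0.29, adjusted p = 0.00498) lower, beside 4.68% of all tested genes. DESeq2 called 5 of 6 lower, beside 9.86%.

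The 7 markers of quiescent stellate cells, led by Reln, summed to 249 to 468 CPM with Vehicle and to 381, 274, 307 and 338 CPM with INT-767. Of these 7, 0 were called by edgeR or DESeq2 and 1 was lower at an unadjusted p under 0.05, beside 15.6% of all tested genes. Portal fibroblast markers, led by Gas6, summed to 270 to 344 CPM and to 143, 153, 278 and 289 CPM. By edgeR 1 of 6 was called lower, the elastin gene Eln (-1.44, SE 0.36, adjusted p = 0.0283), beside 4.68% of all tested genes. Cholangiocyte markers, led by Spp1, summed to 736 to 1937 CPM and to 358, 591, 812 and 1365 CPM, with 0 of 6 called by edgeR. DESeq2 called 2 lower, beside 9.86% of all tested genes, and 3 were lower at an unadjusted p under 0.05, beside 15.6%. Spp1, which macrophages also express, made up 996 of the mean of 1068 CPM with Vehicle, and the other 5 markers summed to 51.7 to 97.8 CPM with Vehicle and to 38.5, 33.3, 63.5 and 58.2 CPM with INT-767. Hepatocyte markers, led by Alb, summed to 51917 to 68774 CPM with Vehicle and to 98757, 98795, 82074 and 54652 CPM with INT-767, with 0 of 6 called by edgeR, 4 higher by DESeq2, beside 10.4% of all tested genes, and 4 higher at an unadjusted p under 0.05, beside 17.4%. Of vascular smooth muscle (most abundant gene Myh11), mesothelium (Gpm6a) and Schwann cells (Ngfr), 2, 4 and 2 markers were abundant enough to test and 0 were called by edgeR. DESeq2 called 1, the mesothelial Upk3b, higher, beside 10.4% of all tested genes. Upk3b was the only one of them with an unadjusted p under 0.05. Sox10, which defines Schwann cells, had no count in any mouse. Of the 13 genes called over the lists of markers, receptors, partners and proteases, 2 (Cd68 and Itgam) were called without INT-767 mouse 2. In that fit 0.767% of all tested genes were called lower. Of the 13, 5 were called without INT-767 mouse 4 (beside 3.17% of all tested genes lower) and 4 to 6 without 1 of Vehicle mice 3 to 6 (1.96% to 2.84%). With the offset on GC content and length 12 were called, all but Nid1 (5.97%). The part of any cell type in the levels of the chains was not tested.

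Of the 7 genes for laminin receptors, 1 fell and 0 rose by edgeR, beside 4.68% and 5.04% of all tested genes, and 3 fell by DESeq2, beside 9.86%, with Itga3 and Itgb4 in addition. The gene called by edgeR was Itga6, the integrin alpha chain that pairs with Itgb1 or Itgb4 to bind laminin. Its level was 15.5 to 22.7 CPM in the Vehicle mice and 3.32 to 15.2 CPM in the INT-767 mice, so that every INT-767 mouse was below every Vehicle mouse, as for 3.65% of all tested genes, with a log2 fold change of -1.24 (SE 0.33, edgeR adjusted p = 0.0369, exact Mann-Whitney p = 0.00606). Without INT-767 mouse 2 its adjusted p was 0.120, and it was also not called without INT-767 mouse 3 or 4 or any one of Vehicle mice 2 to 6. Without INT-767 mouse 3, 2 receptors were called lower, Itga3 and Itgb4, beside 4.32% of all tested genes. Without Vehicle mouse 1, 3 were, Itga6 among them, beside 9.86%. The most abundant receptor gene was Itgb1, at 315 ± 116 CPM with Vehicle and 436 ± 162 CPM with INT-767 (adjusted p = 0.256), and Dag1, which encodes dystroglycan, was at 126 ± 35.8 and 95.8 ± 35.3 CPM (adjusted p = 0.336). The median log2 fold change of the 7 receptors was -0.39. Of the 7 tested enzymes that glycosylate dystroglycan so that it can bind laminin, 0 were called by edgeR, with a median of -0.03, 0 by DESeq2 and 1 higher at an unadjusted p under 0.05, beside 17.4% of all tested genes.

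Of 21 partners of the laminins in the basement membrane, 5 fell and 0 rose by edgeR, beside 4.68% and 5.04% of all tested genes, with a median log2 fold change of -0.54, and DESeq2 called 9 lower, beside 9.86%. Nid1, which links laminin to type IV collagen, was at 97.5 ± 20.9 CPM with Vehicle and 49.5 ± 18 CPM with INT-767 (log2 fold change -0.98, SE 0.26, edgeR adjusted p = 0.0357), and was not called with the offset on GC content and length (-0.59, adjusted p = 0.130). Col4a1, a chain of type IV collagen, was at 125 ± 31.4 and 51.2 ± 22.3 CPM (-1.29, SE 0.30, adjusted p = 0.0234). Sparc, a collagen-binding matricellular protein, was at 149 ± 45.1 and 73.3 ± 21.6 CPM (-1.02, SE 0.27, adjusted p = 0.0337). For each of these 3 genes every INT-767 mouse was below every Vehicle mouse, as for 3.65% of all tested genes.

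Col15a1, the chain of the basement membrane collagen XV, was at 26.8 ± 10.8 and 10.1 ± 3.74 CPM (-1.41, adjusted p = 0.0253). The fibulin gene Fbln2 was at 8.92 ± 3.63 and 3.36 ± 0.943 CPM (-1.41, adjusted p = 0.0236). For both, every INT-767 mouse was again below every Vehicle mouse, as for 3.65% of all tested genes. Lama1, the alpha chain of embryonic basement membranes, was at 5.07 ± 2.15 and 3.62 ± 1.38 CPM (-0.47, SE 0.36, adjusted p = 0.360; 0.07 with the offset on GC content and length). Col4a2, the partner of Col4a1, was at 68.4 ± 35.1 and 21.8 ± 13.2 CPM and missed the threshold by edgeR (-1.65, SE 0.49, adjusted p = 0.0534). So did the perlecan gene Hspg2 (-1.48, SE 0.48, adjusted p = 0.0660). These 2 genes were chosen after their values were seen. Without INT-767 mouse 2, 0 of the 21 partners were called, beside 0.767% of all tested genes called lower. Without INT-767 mouse 4 or Vehicle mouse 6, 2 were, beside 3.17% and 1.96%. Without Vehicle mouse 3, 4 or 5, 3 were, beside 2.76%, 2.84% and 2.11%, and without Vehicle mouse 1, 9 were, beside 9.86%.

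Of 8 proteases that can cleave laminin, 6 were abundant enough to test. By edgeR 1 fell and 0 rose, beside 4.68% and 5.04% of all tested genes. DESeq2 called 2 lower and 1 higher, beside 9.86% and 10.4%. Mmp2, a gelatinase, was at 25.4 ± 8.08 CPM with Vehicle and 11.6 ± 4.93 CPM with INT-767 (log2 fold change -1.14, SE 0.30, edgeR adjusted p = 0.0331). Without INT-767 mouse 2 its adjusted p was 0.131, and it was also not called without INT-767 mouse 1 or 4 or any one of Vehicle mice 3 to 6. The most abundant of them was Plg, the plasminogen gene of hepatocytes, at 1536 ± 334 and 2459 ± 592 CPM (adjusted p = 0.0548). The median of the 6 was -0.52.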

How the data were processed

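Livers of 7 Vehicle and 4 INT-767 mice were grouped by their sample labels. Libraries of mRNA made with a stranded kit were sequenced by the authors and mapped to GRCm38 with STAR (2.4.0 in the submitters' processing notes; the study's methods name another version). They deposited 1 table of raw read counts per gene, whole numbers without normalization, 46603 genes by 11 mice. How reads were counted, whether by strand, and any batch: not given in the sources used here. Gene positions, exons and lengths are from GENCODE M21 (GRCm38).

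Counts were tested with edgeR 4.0.16 in R 4.3.3 (TMM factors, filterByExpr, with minima of 10 counts and of 15 in total, robust glmQLFit and glmQLFTest, treatment only), with Benjamini-Hochberg adjustment over all 13880 genes kept and a threshold of 0.05. The SE is that of the fold change, from the F statistic. For single genes, the exact Mann-Whitney test (two-sided) ran over the 330 assignments of 4 of 11 mice. Ratios used log2 of counts with 0.5 added. The labels give each sample as a liver of its own; p-values measure the spread between these samples. The floor of 3 counts covers counting error only, because the reads carry no molecular identifiers.

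The members, lists and tests were chosen with earlier results of these data known. Named are all 9 members, Lama1, every called gene of the lists of receptors, partners, glycosylation enzymes and proteases, the most abundant and up to 4 called genes of each marker list, the 3 genes most like Lamb1, Lamb2 and Lamc1 (r of log2 CPM, prior count 2), and Nr0b2; receptors, enzymes and markers named beyond these were chosen after their values were seen. Some genes of the lists are not reported here. Alternatives were RLE, library size and upper-quartile scaling, 2 other filters, DESeq2 1.42.0, limma-voom (limma 3.58.1) with and without sample weights, a block for the mouse's number, an offset on GC content and length (lowess span 0.3), both together, a threshold of 0.01 and leaving out each mouse. The fits were tested on simulated data, with the outcome for edgeR and DESeq2 given in the results. Figures were drawn with matplotlib 3.10.9.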

Additional observations from a re-analysis of the deposited data

Results flagged for a closer look

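Of 32 groups of values examined (9 chains and 7 ratios in each treatment group), 2 held a mouse far from the rest of its group. Chance gives about 1 in 20, so that this number is near what chance gives. The log2 ratio of Lama5 to Lamc1 was -0.85 in Vehicle mouse 2, where the other 6 Vehicle mice were between -0.29 and -0.06. The same ratio was -1.18 in INT-767 mouse 1, where the other three INT-767 mice were between -0.47 and -0.35. In both mice Lamc1 was high for the level of Lama5, at 30.6 CPM beside 17.0 CPM in Vehicle mouse 2 and at 23.5 CPM beside 10.4 CPM in INT-767 mouse 1. What sets these mice apart was not tested.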

How the results depend on the processing

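None of the 9 chains changed sign in the 206 values of the alternative fits, of which 172 kept the chain's side of the threshold, 19 lost a call and 15 gained one. Lamb1 lost its call in 12 of 23 alternatives and Lama5 in 7 of 23. These fits share the same mice, and the threshold of 0.01 reuses the main fit. Lama1 turned to 0.07 with the GC and length offset and to 0.12 with the offset and the replicate block. Chains called lower numbered 1 without a filter, 7 by DESeq2, 4 by limma-voom with sample weights and 0 at a threshold of 0.01, and between 0 and 6 when a mouse was left out. Chains called higher were 0 in every fit. The median over the chains was -0.61 with the GC and length offset and -0.43 with the offset and the replicate block, and between -0.83 and -1.19 when a mouse was left out. Of all tested genes, 1026 were lower and 331 higher by library size alone, which moved the median of all genes to -0.22 and the share of calls that were higher from 51.9% to 24.4%; with upper-quartile factors that share was 36.5%. DESeq2 called 1368 lower and 1443 higher, limma-voom with sample weights 1221 and 1658, the threshold of 0.01 87 and 158, and the offset 1066 higher. Leaving out a mouse gave 110 to 1370 lower and 164 to 1906 higher. The mouse numbers are only names: the deviations of same-numbered mice correlated at -0.690, 0.215, 0.148 and -0.482, and with the replicate block 0 chains and 0 genes were called lower or higher, with or without the offset. For Lama5 against Lamc1 the difference of -0.34 had p = 0.115 in an exact permutation test of means and ranged from -0.44 to -0.15 when a mouse was left out; for Lama5 against Lama4 the range was -0.99 to -0.69. The causes were not tested. Depth limits Lama3 most, with at most 21 counts in a mouse.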
